A study of Mus musculus with 8 samples.

Results

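The late rising genes of Cd73-positive cells are 54 of the 21830 genes measured in 8 mouse retina RNAseq libraries. They were chosen by their values. On FPKM + 1 (FPKM being fragments per kilobase of transcript scaled to the number of mapped reads, with 1 added so that values near 0 do not give large folds), each had to be more than 1.5-fold higher in Cd73-positive cells (Cd73PC) than in Cd73-negative cells (Cd73NC) at P8, and less than 1.5-fold higher in P2 Cd73PC than in E18 whole retina. In Cd73PC, each also had to follow one of 2 courses. In 39 genes the level rose at least 2-fold from P2 to P5 and rose again to P8, and the P5 fractions already differed by more than 1.5-fold. In the other 15 genes it rose less than 1.5-fold from P2 to P5 and more than 2-fold from P5 to P8. Gucy2f, Guca1b and Slc24a1 were left out by name, and rows of small RNAs were not considered. These conditions together were met by 0.248% of the 21810 genes with a complete set of values, and the values that chose the genes are given below as a description.

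All animals were ICR mice (strain slc:ICR). Whole retina was taken at embryonic days 15 and 18, and retinas of postnatal days 2, 5 and 8 were dissociated and sorted with an antibody to Cd73, the surface 5'-nucleotidase encoded by Nt5e. For the sorts, 20 (P2), 12 (P5) and 20 (P8) retinas were used. Each of the 8 conditions was 1 library, so there is no replicate error, no test was possible, and every difference is a difference between single libraries. A lower level in a bulk fraction can come from fewer cells of a type or from less RNA per cell, and these cannot be told apart.

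In the mouse retina most rods leave the cell cycle around birth. They then build, over the following days, the outer segment that holds the light-sensing cascade, the inner segment with its lipid and energy supply, and the ribbon synapse that passes the signal on to bipolar cells. The transcription factors Otx2, Crx, Nrl and Nr2e3 set this program, and nuclear receptors that bind the sequence AGGTCA also act in these cells. Cd73 marks rods and their precursors from about the time of birth, so that the Cd73PC fraction follows rods while they mature.

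Promoter sequence was compared first, since the genes were picked for a shared course and sequence did not enter that choice. RefSeq windows on GRCm38.p6, reaching from 250 bases before to 50 bases after a transcription start, were found for 40 of the 54 genes (53 windows). The Crx and Otx2 core TAATCC, searched on both strands, was present in 2 of the 53 windows (3.77%), against 7.06% of all 32851 windows, 5.82% of windows of expressed genes (an FPKM of at least 1 in some library, as in all members) and 16.4% of the 286 windows of the early rising genes. The early rising genes are 275 genes that were above 1.5-fold in Cd73PC over Cd73NC at all 3 ages, were at least 2-fold higher in P2 Cd73PC than in E18, and rose at both later steps. They serve as the comparison throughout. The Nrl site TGCTGA was in 15.1% of the member windows, 19.5% of all windows, 15.6% of expressed windows and 21.0% of the early rising windows. For the nuclear receptor site AGGTCA these shares were 17.0%, 16.3%, 12.1% and 17.1%, and for the E-box CACGTG 15.1%, 7.15%, 9.60% and 9.09%. The E-box share of the members rests on 8 windows of 7 genes, with 2 overlapping windows of Scap among them. Counted by gene it was 17.5%, against 11.5% of expressed genes and 11.8% of early rising genes. The GC box GGGCGG was in 62.3% of member windows, against 62.5% of expressed windows and 35.7% of all windows. TATAAA was in 11.3% of member windows, 13.6% of all windows and 7.20% of expressed windows, and the Mef2 motif in 1.89%, 3.69% and 2.99%. The median ratio of observed to expected CpG was 0.703 in member windows, 0.625 in early rising windows and 0.748 in windows of expressed genes. Windows of one gene can overlap, and matches of different motifs can overlap too. A match of 6 letters describes the sequence and is no evidence of binding.

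The 2 genes with TAATCC were Alpl and Scap. Their sequences are shown with those of Pitpnm1 and Adcy1, described below, because all 4 hold a photoreceptor or nuclear receptor motif before the start, and they were chosen after their values were seen. Each line gives the 250 bases before the start on the gene's own strand, 5′ to 3′, with the core TAATCC, the Nrl site and the nuclear receptor site (or their reverse complements) in capitals.
Alpl, chr4:137766476-137766725, minus strand: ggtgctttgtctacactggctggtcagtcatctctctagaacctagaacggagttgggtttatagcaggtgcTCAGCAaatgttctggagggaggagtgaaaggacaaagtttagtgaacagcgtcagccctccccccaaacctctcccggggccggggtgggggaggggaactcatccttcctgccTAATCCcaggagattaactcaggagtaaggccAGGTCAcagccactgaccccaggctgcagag
Scap, chr9:110333038-110333287, plus strand: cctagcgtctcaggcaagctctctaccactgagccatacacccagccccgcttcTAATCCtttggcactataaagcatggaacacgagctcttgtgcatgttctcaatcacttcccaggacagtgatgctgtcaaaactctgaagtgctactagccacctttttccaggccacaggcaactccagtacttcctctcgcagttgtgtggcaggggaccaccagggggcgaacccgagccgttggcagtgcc
Pitpnm1, chr19:4099748-4099997, plus strand: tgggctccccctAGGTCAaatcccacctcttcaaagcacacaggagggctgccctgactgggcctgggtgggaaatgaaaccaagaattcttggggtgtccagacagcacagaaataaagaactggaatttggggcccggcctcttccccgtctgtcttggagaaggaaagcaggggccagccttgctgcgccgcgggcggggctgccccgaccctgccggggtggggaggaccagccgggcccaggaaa
Adcy1, chr11:7063183-7063432, plus strand: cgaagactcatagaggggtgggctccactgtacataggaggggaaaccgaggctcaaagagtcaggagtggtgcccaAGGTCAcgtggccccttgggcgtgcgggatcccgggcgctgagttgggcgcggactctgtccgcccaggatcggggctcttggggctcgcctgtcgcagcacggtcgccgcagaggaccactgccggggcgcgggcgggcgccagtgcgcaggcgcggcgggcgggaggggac
The Alpl window was the only member window with both TAATCC and TGCTGA. Its TGCTGA lies as the reverse complement 178 bases before the start, TAATCC 63 bases and AGGTCA 31 bases before it. RefSeq gives Alpl a second start upstream, whose window held none of these 3 motifs and had a CpG ratio of 0.720 against 0.181 in the window shown. The AGGTCA matches of Pitpnm1 and Adcy1 lie 238 and 173 bases before the starts shown, and the TAATCC of Scap lies 196 bases before the start shown. RefSeq also gives Pitpnm1 and Scap a second start downstream, and neither of those windows held any of the 3 motifs. No window of Esrrb, the member with the largest fraction ratio, held any of the 3 motifs.

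**Figure D1:**
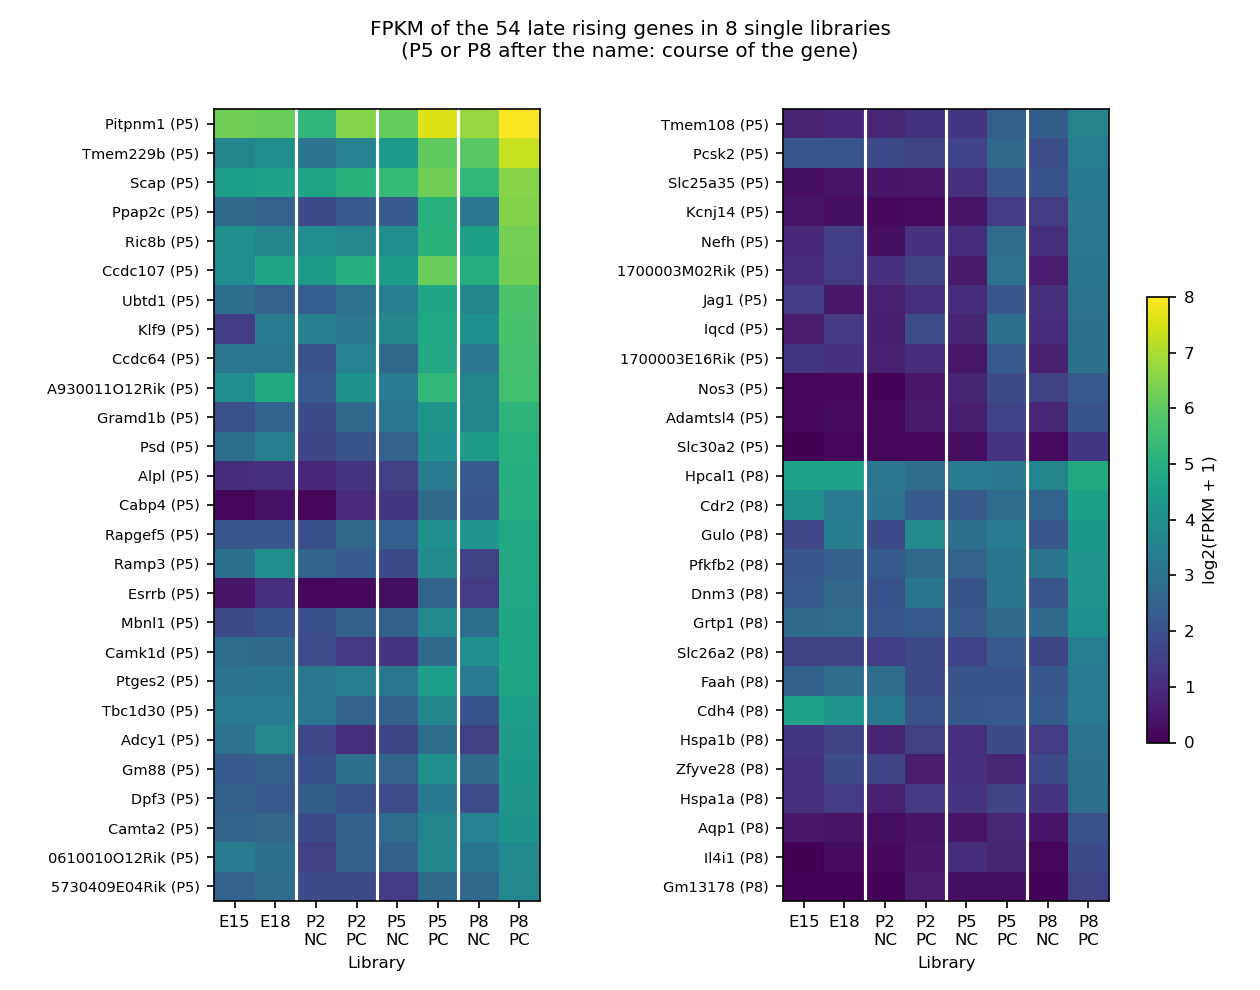
Heat map of the 54 late rising genes (rows) in the 8 single libraries (columns; NC, Cd73NC; PC, Cd73PC), coloured by log2(FPKM + 1), with the 39 genes that rose by P5 first and the 15 that rose after P5 last, each in order of the P8 Cd73PC level. P8 Cd73PC was the highest of the 8 libraries for 53 genes, the exception being Cdh4, which was highest in E15 whole retina.

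Over the 54 genes, whole retina had a median FPKM of 3.58 at E15 and 4.59 at E18. The Cd73PC median climbed through 2.93 (P2) and 6.77 (P5) to 17.6 (P8), whereas the Cd73NC median moved only through 2.57 and 2.97 to 3.76. From P2 to P8 the genes rose by a median of 3.75-fold in Cd73PC, from 1.40-fold for Gulo to 23.9-fold for Esrrb. At P8 the ratio of Cd73PC to Cd73NC had a median of 3.06, from 1.502 to 10.4. The rule bounds the P8 ratio from below, and the rise from P2 to P8 only for the 39 genes that rose by P5. Its thresholds are passed by 7.55% of all genes for the P8 ratio, 7.02% for the P5 ratio, 1.02% for the rise to P5, 1.14% for the rise from P5 to P8 and 91.2% for P2 Cd73PC below 1.5 times E18. Of the 54 genes, 51 rose in FPKM at both steps, and Gulo, Dnm3 and Gm13178 were lower at P5 than at P2. Most were of moderate or low level even at their peak. In P8 Cd73PC, 8 reached an FPKM of 50 and 20 stayed under 10. In 9 genes the FPKM was below 1 in E15, E18 and both P2 libraries, which were Cabp4, Slc25a35, Kcnj14, Nos3, Adamtsl4, Slc30a2, Aqp1, Il4i1 and Gm13178.

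The level before birth differed widely among the members. Since the rule chose P8 Cd73PC to be high and used E18, the following values are a description. The P8 Cd73PC level was at least 5 times the higher of E15 and E18 on FPKM + 1 in 15 genes, with a median of 3.16 times over all 54. In Cdh4 it was 0.402 times that level. Hpcal1 rose only to 27.8 in P8 Cd73PC from 23.3 in E15. Both were lower in P2 Cd73PC than in E15 and E18.

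Each of the gene lists drawn up for the retina held 0 or 1 late rising gene. The rule was met by 0.248% of all genes and 0.403% of expressed genes, so for lists of this size such counts are no departure from the background. Early rising genes could not be late rising ones, since the rule required P2 Cd73PC below 1.5 times E18. Of 28 rod phototransduction genes, which carry the light response from rhodopsin to the cyclic GMP channel, 27 were higher in Cd73PC at P8, 24 were early rising genes and 0 were late rising genes. The 3 genes left out by name act in the recovery of that cascade, and of these Slc24a1 met every other condition of the rule. Among 29 photoreceptor synapse genes 17 were higher at P8 and 12 were early rising, and Cabp4 was the only late rising one. Among 24 photoreceptor transcription factors and their coactivators 16 were higher at P8, 6 were early rising, and Esrrb was the only late rising one. The list of 40 ion channels, pumps and transporters held 1 late rising gene, Kcnj14. That of 24 genes of polyunsaturated lipid metabolism held Pitpnm1 alone, and that of 40 small GTPase regulators Rapgef5 alone. These lists are not complete, and other members with such functions, described below, were not on them. The lists of 30 outer segment disc and cilium genes, 35 energy metabolism genes, 18 clock genes and 35 chromatin and nuclear architecture genes held 0 late rising genes.

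Esrrb encodes an orphan nuclear receptor of the estrogen-related family, which binds sites that contain AGGTCA and is known to act in rods. Its FPKM was 0.395 at E15, 1.11 at E18, then 0.0915 for Cd73NC against 0.144 for Cd73PC at P2, 0.231 against 4.96 at P5 and 1.64 against 26.3 at P8. It was near 0 in both P2 fractions and in P5 Cd73NC, and P8 Cd73PC stood far above every other library. The fraction ratio on FPKM + 1 grew from 1.05 (P2) through 4.84 (P5) to 10.4 (P8). Esrrb was the only member above 10 at P8 and had the largest rise from P2 to P8. The other receptors of the family did not share this course, and the coactivators with which they work were compared with them in a list made after the values were seen. Esrra had an FPKM of 8.07 in P2 and 8.09 in P8 Cd73PC, and 10.9 in P8 Cd73NC. Esrrg had 14.7 in P2 and 17.1 in P8 Cd73PC, and 26.7 in P8 Cd73NC. Ppargc1b, a coactivator of these receptors, climbed in Cd73PC through 1.67 (P2) and 6.97 (P5) to 13.4 (P8), against 1.55 for P8 Cd73NC. Ppargc1a had 3.61, 5.87 and 6.73 at these ages in Cd73PC and 0.996 in P8 Cd73NC.

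The other 5 genes of transcription, chromatin and RNA processing were all of the course that rises by P5, as Esrrb was. Klf9, a zinc finger repressor that responds to thyroid hormone in neurons, had an FPKM of 1.73 at E15, 8.96 at E18, then 10.2 for Cd73NC against 7.99 for Cd73PC at P2, 11.4 against 25.9 at P5 and 15.3 against 50.8 at P8. At P2 it was slightly lower in Cd73PC than in Cd73NC, and the fractions parted only afterwards. Mbnl1, a splicing regulator, climbed in Cd73PC through 4.55 (P2) and 12.4 (P5) to 25.9 (P8), against 6.48 for P8 Cd73NC. Dpf3, a subunit of the BAF chromatin remodelling complex, had 2.92, 8.50 and 18.0 at these ages in Cd73PC, with 2.76 in P8 Cd73NC. Camta2, a calmodulin-binding transcription activator, lay at the edge of the rule with a P8 ratio of 1.502, and its FPKM rose from 2.54 to 10.7 between P2 and P8 in Cd73NC as well. A930011O12Rik is the long noncoding host transcript of Mir124a-1 on chromosome 14. Its FPKM was 14.3 at E15, 27.7 at E18, then 4.04 for Cd73NC against 16.2 for Cd73PC at P2, 8.82 against 38.6 at P5 and 11.2 against 46.4 at P8. This transcript was already 3.41-fold higher in Cd73PC at P2 but lay below its E18 level there, which is why it met the rule. The mature miRNA itself was not measured by these libraries.

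**Figure D2:**
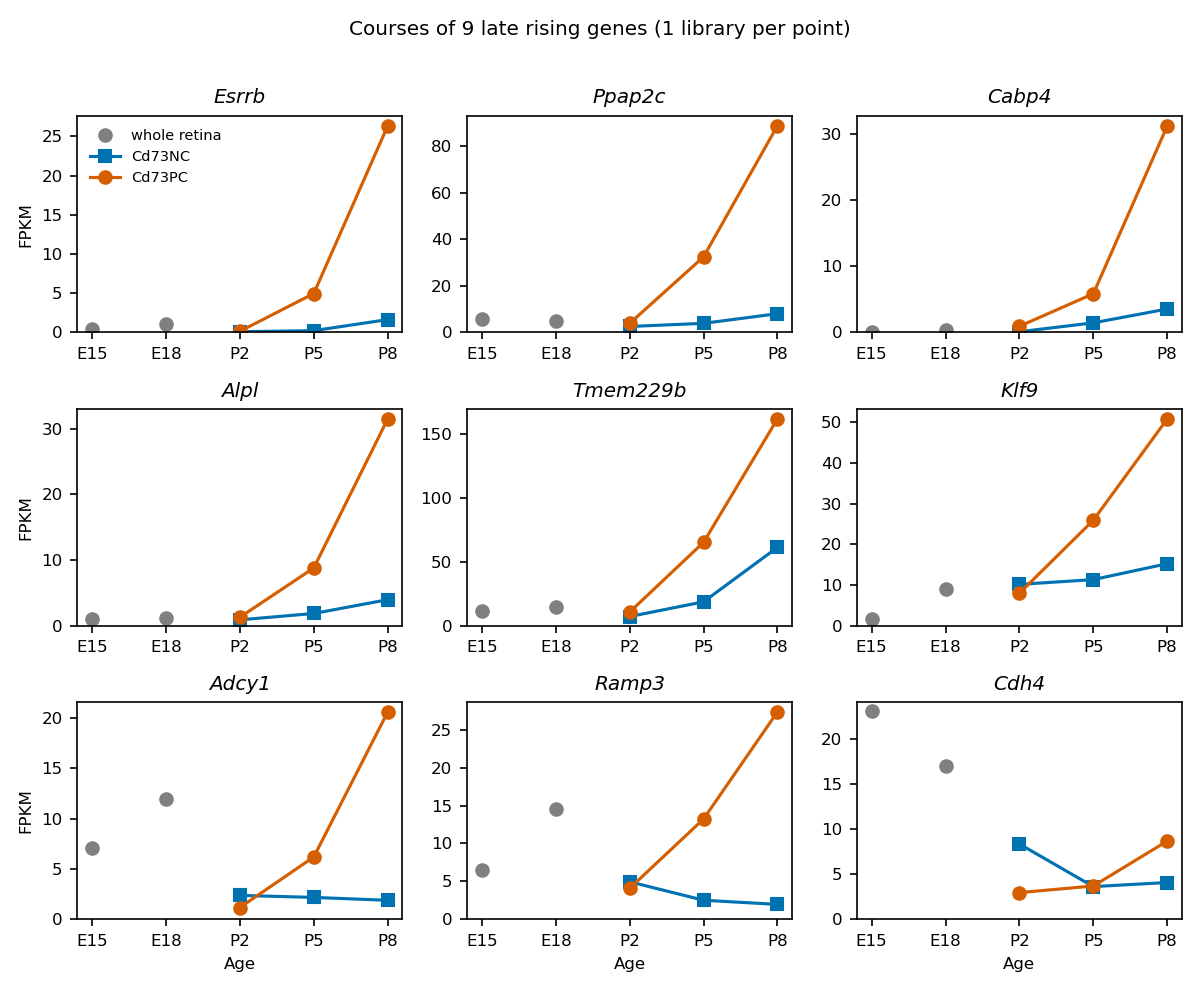
FPKM (linear axis, from 0) against age for 9 late rising genes, with whole retina in grey, Cd73NC in blue and Cd73PC in orange, 1 library per point. Esrrb, Ppap2c, Cabp4, Alpl, Tmem229b and Klf9 differed between the fractions by at most 1.75-fold at P2 (FPKM + 1) and rose more in Cd73PC than in Cd73NC. Adcy1, Ramp3 and Cdh4, and also Esrrb, Ppap2c and Tmem229b, were higher in E18 whole retina than in either P2 fraction.

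Calcium and G protein signalling was represented by 7 genes. Cabp4 encodes a calcium-binding protein of photoreceptor terminals that tunes the synaptic calcium channel. Its FPKM was 0.0836 at E15, 0.323 at E18, then 0.106 for Cd73NC against 0.932 for Cd73PC at P2, 1.45 against 5.86 at P5 and 3.55 against 31.2 at P8. It was below 1 in every library up to P2, and its rise from P5 to P8, 4.70-fold on FPKM + 1, was the largest among the members. At P2 the fraction ratio of Cabp4 was already 1.75 on FPKM + 1, and its Cd73NC level was 11.4% of its Cd73PC level. With 0.1 or 0.01 added in place of 1, or after quantile normalization, Cabp4 did not meet the rule. Of the channel's own subunits, Cacna1f, the pore, stood at 2.91 against 0.285 (Cd73PC against Cd73NC) at P2 and at 16.3 against 8.64 at P8. Cacnb2, an auxiliary subunit, stood at 2.49 against 0.189 at P2 and at 31.0 against 6.91 at P8. Cacna2d4, the other auxiliary subunit listed, stood at 26.7 against 2.93 at P2 but at 64.8 against 67.0 at P8, so that its fractions no longer differed by 1.5-fold.

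Adcy1 encodes an adenylyl cyclase that calcium and calmodulin stimulate. Its FPKM was 7.06 at E15, 11.9 at E18, then 2.35 for Cd73NC against 1.15 for Cd73PC at P2, 2.16 against 6.17 at P5 and 1.87 against 20.6 at P8. It was high before birth, lowest of all 8 libraries in P2 Cd73PC, and in the end 7.53-fold higher in Cd73PC than in Cd73NC, where it stayed near 2. Ramp3, a membrane protein that sets the ligand choice of calcitonin-family receptors, lies 386014 bases from Adcy1 on chromosome 11. Its FPKM was 6.53 at E15, 14.6 at E18, then 4.92 for Cd73NC against 4.06 for Cd73PC at P2, 2.49 against 13.2 at P5 and 1.94 against 27.4 at P8. Its course resembled that of Adcy1, with a fall in Cd73NC and a P8 ratio of 9.65. Ric8b, a chaperone of stimulatory G protein alpha subunits, had an FPKM of 14.9 at E15, 11.6 at E18, then 13.5 for Cd73NC against 12.1 for Cd73PC at P2, 14.2 against 34.3 at P5 and 21.7 against 79.4 at P8. It did not differ by more than 1.5-fold between the fractions until P5. Hpcal1, a neuronal calcium sensor, moved through 6.20, 8.21 and 27.8 in Cd73PC with age, against 7.86, 8.57 and 11.1 in Cd73NC. Camk1d, a calcium- and calmodulin-dependent kinase, rose 3.95-fold from P5 to P8 in Cd73PC on FPKM + 1, and also 6.75-fold in Cd73NC, so that P8 Cd73NC held 59.4% of the Cd73PC level. Nos3, the endothelial nitric oxide synthase, reached only 3.78 in P8 Cd73PC, and 25.2% of its annotated exon bases lie over exons of Gm15587 on the opposite strand, which reads without strand information cannot separate.

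Among 10 genes of lipid, phosphate and small-molecule metabolism, Pitpnm1 had the highest level of all members. It encodes a phosphatidylinositol transfer protein, the counterpart of the fly protein that maintains photoreceptors. Its FPKM was 76.8 at E15, 70.6 at E18, then 37.2 for Cd73NC against 90.1 for Cd73PC at P2, 68.4 against 189 at P5 and 108 against 249 at P8. It was expressed in every library and was 2.38-fold higher in Cd73PC already at P2, and it entered the set through its 2.08-fold rise from P2 to P5. Pitpnm1 and Cabp4 are neighbours on chromosome 19, 21458 bases apart. Ppap2c (Plpp2), a lipid phosphate phosphatase, had the largest rise from P2 to P5, 6.85-fold on FPKM + 1. Its FPKM was 5.84 at E15, 4.77 at E18, then 2.57 for Cd73NC against 3.89 for Cd73PC at P2, 3.91 against 32.5 at P5 and 8.06 against 88.9 at P8. The fractions were within 1.5-fold at P2, and the Cd73NC level reached 9.06% of the Cd73PC level at P8. The P8 Cd73PC value lies above the upper bound of its own Cufflinks interval (83.9), so its size is uncertain.

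Alpl, the tissue-nonspecific alkaline phosphatase and like Cd73 an enzyme anchored on the outer face of the membrane, had an FPKM of 1.07 at E15, 1.14 at E18, then 0.903 for Cd73NC against 1.29 for Cd73PC at P2, 1.87 against 8.79 at P5 and 3.96 against 31.4 at P8. It stayed near 1 up to P2 in all libraries and rose 14.1-fold from P2 to P8 in Cd73PC. Scap, the sterol sensor that escorts SREBP proteins, had an FPKM of 21.5 at E15, 23.3 at E18, then 25.1 for Cd73NC against 34.5 for Cd73PC at P2, 40.1 against 75.2 at P5 and 38.2 against 93.3 at P8. It rose most between P2 and P5, with a P8 ratio of 2.40. An opposite-strand gene, 5830462I19Rik, covers 18.9% of its exon bases. Gulo, the last enzyme of vitamin C synthesis in mice, had an FPKM of 2.29 at E15, 9.37 at E18, then 2.63 for Cd73NC against 12.7 for Cd73PC at P2, 6.59 against 8.57 at P5 and 3.51 against 18.2 at P8. Gulo was the member with the largest P2 fraction ratio, 3.77, and its level in Cd73PC fell from P2 to P5 before it rose. Gramd1b, a sterol transfer protein, went from 5.34 to 17.8 and 35.9 in Cd73PC. Faah, which breaks down anandamide, was 9.03 in P8 Cd73PC after 2.57 at P2 and 3.23 at P5. The glycolytic regulator Pfkfb2, the prostaglandin synthase Ptges2 and the amino acid oxidase Il4i1 had 17.2, 25.1 and 2.61 in P8 Cd73PC.

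The 5 genes of channels and carriers were all weakly expressed, between 1.39 and 9.97 in P8 Cd73PC. Kcnj14, an inwardly rectifying potassium channel, had an FPKM of 0.366 at E15, 0.245 at E18, then 0.150 for Cd73NC against 0.185 for Cd73PC at P2, 0.355 against 1.68 at P5 and 1.64 against 8.22 at P8. The P2 fraction ratio was 1.03, and the level rose 3.44-fold from P5 to P8 in Cd73PC on FPKM + 1. The others were the water channel Aqp1, the zinc transporter Slc30a2, the mitochondrial carrier Slc25a35 and the sulfate transporter Slc26a2. In Slc25a35, 31.3% of the exon bases lie over Rangrf on the opposite strand. Of these 5 genes, 0 differed by more than 1.5-fold between the fractions at P2, where 8.56% of all genes were higher and 14.4% lower in Cd73PC, so that this count is near the background.

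Membrane traffic and small GTPases gave 8 genes. Ccdc64 (Bicdl1), an adaptor that links vesicles to microtubule motors, had an FPKM of 7.77 at E15, 8.26 at E18, then 2.94 for Cd73NC against 10.7 for Cd73PC at P2, 5.51 against 27.4 at P5 and 8.08 against 49.2 at P8. It was higher in Cd73PC than in Cd73NC at each age, 2.97-fold at P2. Psd, an exchange factor for Arf6, went from 3.15 to 15.3 and 32.9 in Cd73PC and from 2.22 to 4.67 and 20.3 in Cd73NC, so that both fractions rose. Rapgef5, an exchange factor for Rap, behaved likewise, with 5.55, 15.0 and 27.5 in Cd73PC and 2.90, 4.20 and 17.3 in Cd73NC. With 0.1 or 0.01 added in place of 1, or after upper quartile or quantile scaling, Rapgef5 did not meet the rule. Nor did it with a fold of 2 between the fractions. Tbc1d30, a Rab GTPase-activating protein, fell from 7.84 to 3.02 in Cd73NC while it rose from 4.82 to 21.0 in Cd73PC. Zfyve28, an endosomal protein, had 0.553 in P2, 0.816 in P5 and 6.64 in P8 Cd73PC. Dnm3, a dynamin, was 7.71, 7.62 and 17.0 at these ages. Grtp1 and Pcsk2, a prohormone convertase, reached 15.3 and 9.64. In Grtp1, 5.73% of the exon bases lie over Lamp1 on the opposite strand, which had an FPKM of 140 in P8 Cd73PC and 120 in P8 Cd73NC. The level of Grtp1 is therefore uncertain.

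Cytoskeleton, adhesion and matrix genes numbered 5. Cdh4, the R-cadherin, had an FPKM of 23.0 at E15, 17.0 at E18, then 8.32 for Cd73NC against 2.93 for Cd73PC at P2, 3.60 against 3.67 at P5 and 4.05 against 8.65 at P8. It was highest before birth and reached only part of that level at P8. Its ratio of Cd73PC to Cd73NC at P2 was 0.422 on FPKM + 1, the lowest of the members. Nefh, the heavy neurofilament, climbed in Cd73PC through 1.21 (P2) and 5.90 (P5) to 7.92 (P8), against 1.14 for P8 Cd73NC. Jag1, a Notch ligand, had 1.11, 3.51 and 7.52 in Cd73PC. Tmem108 and Adamtsl4 reached 10.8 and 3.17.

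Hspa1a and Hspa1b, near-identical copies of the inducible Hsp70 gene 10121 bases apart on chromosome 17, share reads and were taken as 1 uncertain signal. Their FPKM in P8 Cd73PC was 6.36 and 7.28, against 1.37 and 1.66 in P8 Cd73NC, and at most 2.55 in any other library. Other heat shock genes, listed after these values were seen, had P8 ratios between 0.696 and 1.05, apart from Hsp90aa1 with 1.66 (373 in Cd73PC and 225 in Cd73NC).

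The remaining 11 genes have other or unnamed products. Tmem229b, a membrane protein, was the second highest member with an FPKM of 11.6 at E15, 14.5 at E18, then 7.20 for Cd73NC against 10.7 for Cd73PC at P2, 18.7 against 65.1 at P5 and 61.2 against 161 at P8. It rose in both fractions, by 13.9-fold in Cd73PC and 7.58-fold in Cd73NC from P2 to P8, the latter being the largest rise of any member in Cd73NC. Ubtd1, a ubiquitin-domain protein, had an FPKM of 6.47 at E15, 4.70 at E18, then 4.26 for Cd73NC against 7.02 for Cd73PC at P2, 9.92 against 25.3 at P5 and 11.4 against 53.5 at P8. Its rise took place mainly in Cd73PC. Ccdc107, a membrane protein with 8.02% of its exon bases over the RNase MRP RNA gene on the opposite strand, had an FPKM of 13.9 at E15, 24.8 at E18, then 19.4 for Cd73NC against 31.4 for Cd73PC at P2, 20.4 against 71.0 at P5 and 30.7 against 77.4 at P8. Nearly all of its rise fell between P2 and P5. Cdr2 went from 4.06 to 5.90 and 22.6 in Cd73PC, and 1700003M02Rik (Cfap206) from 1.90 to 6.97 and 7.55 with 0.551 in P8 Cd73NC. Iqcd, 1700003E16Rik, Gm88 (Lrrc73), 5730409E04Rik, 0610010O12Rik (Cystm1) and Gm13178 lay between 1.94 and 18.2 in P8 Cd73PC. In Iqcd, 15.8% of the exon bases lie over 1110008J03Rik on the opposite strand, which had an FPKM of 6.37 in P8 Cd73PC and 6.57 in P8 Cd73NC.

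Within the set, the 39 genes that rose by P5 and the 15 that rose after it differed in level. Median FPKM in P8 Cd73PC was 25.1 in the former and 9.03 in the latter. The 39 genes rose by a median of 2.42-fold from P2 to P5 and 1.89-fold from P5 to P8, and the 15 genes by 1.23-fold and 2.33-fold, as the rule fixed. Of the 39 genes, 14 went on to rise more than 2-fold after P5 and 14 rose less than 1.5-fold. Esrrb, Cabp4 and Alpl belonged to the former, and Ccdc107, A930011O12Rik, Iqcd and 1700003M02Rik to the latter. Among the 15 genes, Dnm3, Slc26a2 and Hspa1b were above 1.5-fold in Cd73PC over Cd73NC already at P5. Just outside the thresholds lay Rpe65 and Hk1 with P8 ratios of 1.46 and 1.47, 2310030A07Rik and Tub with ratios of P2 Cd73PC to E18 of 1.503 and 1.53, Arhgap10 and Whrn with rises to P5 of 1.99 and 1.97, and Mmp17 and Apoo-ps with rises after P5 of 1.97 and 1.95. Just inside lay Camta2 and Rapgef5 (1.502 and 1.56), Iqcd and Jag1 (1.48 and 1.47), 5730409E04Rik and Iqcd (2.03 and 2.05), and Gulo and Il4i1 (2.01 and 2.02). A further 99 genes met the other conditions with a rise to P5 between 1.5-fold and 2-fold, which neither course admits.

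**Figure D3:**
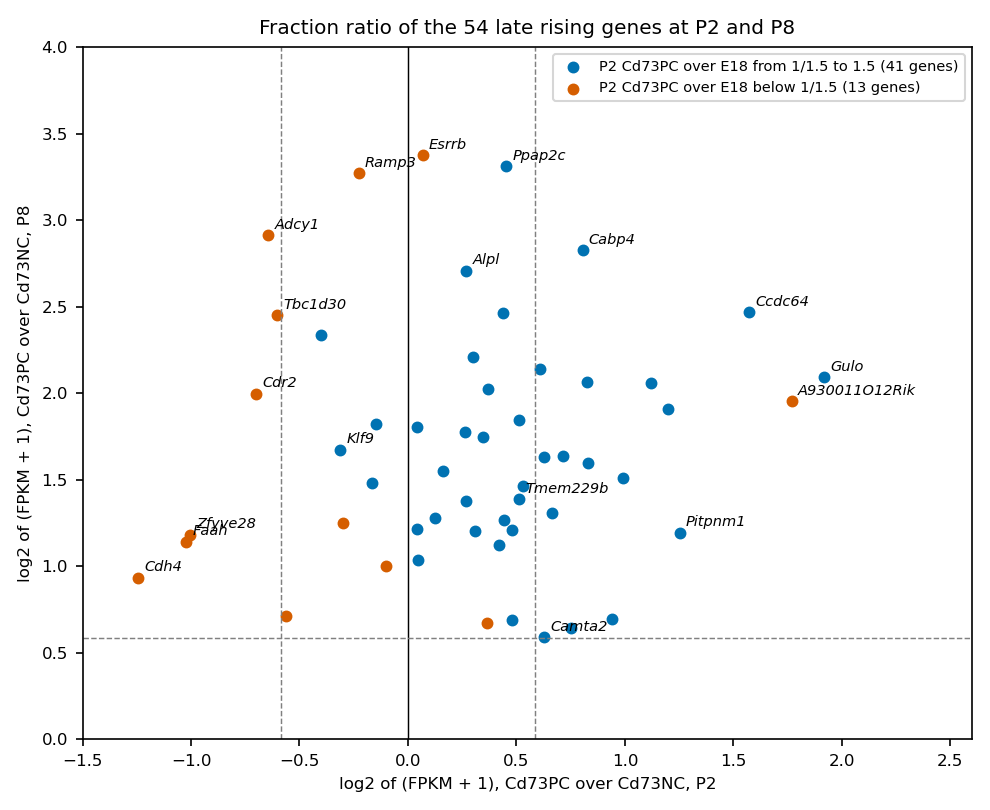
Log2 ratio of Cd73PC to Cd73NC (FPKM + 1) at P2 (horizontal) and P8 (vertical) for each of the 54 late rising genes, with dashed lines at 1.5-fold and orange for the 13 genes more than 1.5-fold lower in P2 Cd73PC than in E18. Every gene lies above the P8 line by the rule, and 17 lie to the right, 6 to the left and 31 between the P2 lines.

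The P2 fractions were compared because P2 Cd73NC did not enter the rule, although P2 Cd73PC did. The rule also asked for more than 1.5-fold between the fractions at P8, and at P5 for 39 genes. Such a choice favours genes that are higher in Cd73PC at P2 too. The background shares below carry no such condition, so the counts are a description. In 17 of the 54 genes (31.5%) Cd73PC was already more than 1.5-fold higher than Cd73NC at P2, against 8.56% of all genes and 13.7% of genes with an FPKM of at least 1 in some library. The largest ratios on FPKM + 1 were those of Gulo (3.77), A930011O12Rik (3.41), Ccdc64 (2.97), Pitpnm1 (2.38), Iqcd (2.29) and Dnm3 (2.17). In 6 genes (11.1%) Cd73PC was more than 1.5-fold lower, against 14.4% of all genes and 23.3% of expressed genes, a share near or below the background. These were Cdh4 (0.422), Faah (0.492), Zfyve28 (0.498), Cdr2 (0.615), Adcy1 (0.640) and Tbc1d30 (0.658). After quantile normalization the split was 22 higher and 3 lower, and Cdr2, Adcy1 and Tbc1d30 no longer passed 1.5-fold. The other 31 genes, Esrrb, Ppap2c, Alpl, Tmem229b, Klf9 and Kcnj14 among them, were within 1.5-fold. For members near 0 in both P2 fractions, such as Esrrb and Kcnj14, the added 1 alone keeps the ratio within this range. The median log2 ratio was 0.37 for the members, 1.94 for the early rising genes and -0.13 for expressed genes. The early rising genes had to be above 1.5-fold at P2, so their value is fixed by their choice.

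The rule set no lower limit on P2 Cd73PC relative to E18. P2 Cd73PC was more than 1.5-fold below E18 whole retina in 13 genes (24.1%), a split made after the values were seen. This held for 18.3% of all genes and 29.0% of expressed genes, so the share among the members was near the background. In these 13 genes the median FPKM went from 9.15 in E18 to 2.93 in P2 Cd73PC and then to 22.6 in P8 Cd73PC. In the other 41 genes it was 3.33, 2.92 and 16.6. All 6 genes that were lower in Cd73PC than in Cd73NC at P2 were among the 13, but both ratios share P2 Cd73PC, so this is not independent. P2 Cd73PC was the lowest of all 8 libraries for Adcy1, Hpcal1, Faah, Cdh4 and Zfyve28.

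**Figure D4:**
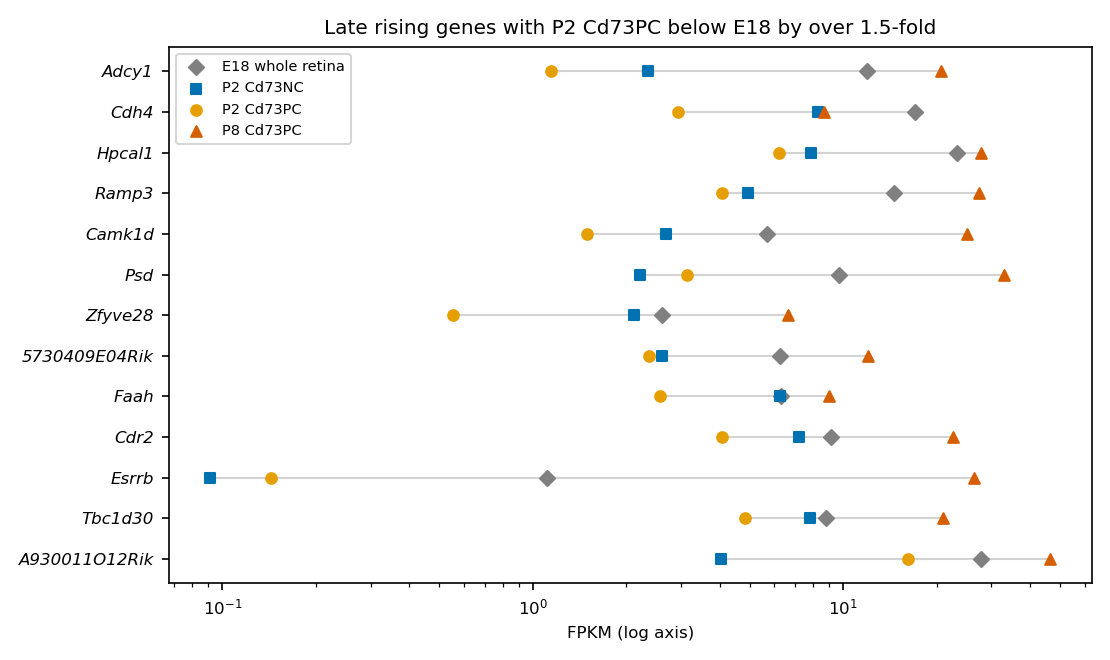
FPKM on a log axis for the 13 late rising genes that were more than 1.5-fold lower in P2 Cd73PC than in E18 whole retina (rows), with 1 symbol per library. In P2 Cd73PC the genes lay between 0.144 (Esrrb) and 16.2 (A930011O12Rik), and all except Cdh4 were higher in P8 Cd73PC than in E18.

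E15 did not enter the rule, and E18 did as a denominator, which favours genes that are high at E18. From E15 to E18, 11 of the 54 genes (20.4%) rose more than 1.5-fold on FPKM + 1, against 4.6% of all genes and 7.37% of expressed genes, and 2 (3.7%) fell, against 2.1% and 3.32%. Those that rose were Klf9 (3.65), Gulo (3.15), Ramp3 (2.07), A930011O12Rik, Ccdc107, Zfyve28, Iqcd, Adcy1, Gramd1b, Esrrb and Nefh. Those that fell were Cdr2 (0.604) and Jag1 (0.533). The median change was 0.12 on the log2 scale for the members and 0.34 for the early rising genes, of which 79 of 275 (28.7%) rose.

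P2 Cd73NC did not enter the rule, whereas the later Cd73NC libraries did as denominators. Many members also rose in Cd73NC. From P2 to P8, 30 of the 54 genes (55.6%) were more than 1.5-fold higher there. This held for 13.5% of all genes and 20.9% of expressed genes. By the same fold 4 were lower, against 14.3% of all genes. Of the early rising genes, 66.2% were higher and 1.09% lower, so this rise is no particular trait of the late rising genes. In the separate intervals, 73.5% of the early rising genes rose before P5 and 15.6% after it. Among the members the rise was spread over both intervals (33.3% and 31.5%). From P2 to P5, 18 genes rose and 6 fell, against 7.92% and 9.51% of all genes, and from P5 to P8, 17 rose and 2 fell, against 8.47% and 7.78%. The largest rises in Cd73NC from P2 to P8 on FPKM + 1 were in Tmem229b (7.58), Psd (6.62) and Rapgef5 (4.70), and the largest falls in Tbc1d30 (0.455), Ramp3 (0.496) and Cdh4 (0.542). In 0610010O12Rik, Camta2, Pitpnm1 and Rapgef5 the fold from P2 to P8 was at least as large in Cd73NC as in Cd73PC. In the others it was larger in Cd73PC, as the rule largely fixed.

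Rod transcripts also rose in Cd73NC. The summed FPKM of 7 rod markers went through 50.4, 805 and 769.7 with age in Cd73NC and through 3215, 7072 and 11769.9 in Cd73PC, and their part in the members' Cd73NC levels was not tested. At P8 the Cd73NC level of the rod markers was between 5.13% and 7.87% of the Cd73PC level, with a median of 6.55%. For the late rising genes the median was 24.7%, from 2.94% to 64.5%, and for the early rising genes 19.9%. Above the highest rod marker lay 49 of the 54 genes. The median of the early rising genes also lay above that marker, as did that of expressed genes (122%). Lying above it is therefore no particular trait of the late rising genes. The 5 members at or below the highest rod marker were Esrrb (6.22%), Ramp3 (7.09%), 1700003M02Rik (7.30%), Il4i1 (2.94%) and Gm13178 (3.32%). The last 2 of these were at FPKM 2.61 or less. At P2 all members lay above the rod markers, which were at 4.74% or less. At P5, where the markers ranged from 5.52% to 21.1%, 9 members were at or below the highest of them. The early rising medians for these 2 ages, 15.4% and 29.0%, were likewise above the highest marker.

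**Figure D5:**
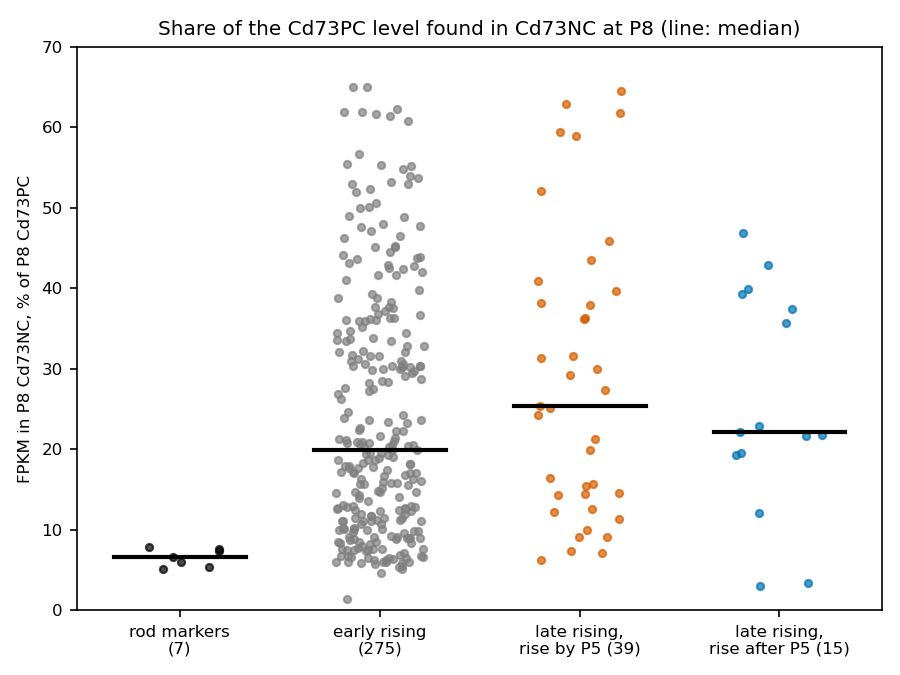
FPKM in P8 Cd73NC as a percentage of P8 Cd73PC (vertical, linear from 0) for 7 rod markers, 275 early rising genes, and the late rising genes that rose by P5 (39) or after P5 (15), 1 point per gene and a line at the median. The rod markers lie between 5.13% and 7.87%, and the medians of the 2 late rising groups were 25.4% and 22.1%.

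As a check of the sort, the FPKM of Nt5e in Cd73PC against Cd73NC was 97.3 against 2.43 at P2, 131 against 31.4 at P5, and 124 against 9.38 at P8. Depth relative to E18, read from the steps of the lowest values, ranged from 0.965 (E15) to 1.62 (P2 Cd73PC), and 11153 to 12414 genes reached an FPKM of 1 per library. Markers of several other cell types were lower in P8 Cd73PC than in P8 Cd73NC. The summed FPKM was 244 against 2073 for 7 bipolar markers (7 of them more than 1.5-fold lower), 319 against 1224 for 6 Muller glia markers (6 lower), 13.2 against 75.4 for 5 endothelial markers (2 lower), 98.5 against 128 for 5 microglia markers (1 lower) and 2075 against 5171 for 4 erythroid markers (2 lower). Some of these sums were nevertheless higher in Cd73PC at P8 than at P2. At P2, P5 and P8 they were 53.0, 85.3 and 244 for bipolar and 36.5, 938 and 2075 for erythroid markers. For microglia markers they were 35.5, 28.8 and 98.5, with a fall at P5. In contrast, the Muller glia sum (478, 402 and 319) and the endothelial sum (35.2, 35.7 and 13.2) ended lower. The sums were higher in P8 Cd73PC for 7 cone markers (166 against 126, with 3 of them more than 1.5-fold higher) and 6 pigment epithelium markers. Of 4 amacrine markers 2 were lower and only Slc6a9, a glycine transporter with 50.7 against 10.4, was higher, and it carried their sum (55.7 against 39.8). The pigment epithelium sum went through 40.3, 40.5 and 83.2 with age in Cd73PC and through 2.35, 28.8 and 46.4 in Cd73NC, and 3 of the 6 (Tyrp1, Dct and Ttr) were more than 1.5-fold higher in P8 Cd73PC. Rpe65, a defining gene of that epithelium, was listed at 0 in both P2 fractions and reached 4.26 in P8 Cd73PC. The part of any of these cell types in the rise of the members was not tested.

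The intervals that Cufflinks gives for the 2 fractions at P8 did not overlap for 53 of the 54 genes, the exception being 0610010O12Rik. These intervals cover counting and assignment of reads in 1 library, not the spread between animals. Of the 432 values of the members, 18 lay outside their own interval, in 9 genes, Ppap2c, Ccdc107, Ubtd1, Ccdc64 and Cabp4 among them.

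The members lie on 16 chromosomes, with 7 on chromosome 4, the most on any. On the mm9 coordinates of the files, Esrrb spans chr12:87702067-87862578, Cabp4 chr19:4135423-4139609, Pitpnm1 chr19:4100117-4113965, Ppap2c chr10:78989174-78996532, Alpl chr4:137297647-137352292 and Tmem229b chr12:80062782-80108264. The median genomic span was 21836 bases, against 21600.0 bases for expressed genes and 26968 for the early rising genes.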

How the data were processed

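RNAseq was performed on 8 libraries, 1 per condition. Per the study's methods, poly(A) RNA was read as 36-base single-end tags, which were mapped to mm9. No step that keeps the strand is named there, so the reads were taken as unstranded. The submitters' processing notes name CASAVA 1.8.2, bcl2fastq 1.8.4, TopHat2 2.0.8b and Cufflinks 2.1.1. The authors deposited FPKM values with an interval for each gene. No counts were used, and depth is known only relative to E18, from the steps of low values. The total count per library is not given in the sources used here. Rows of one gene were summed, 794 rows of small RNAs were left out, and estimates that Cufflinks marked as failed were taken as missing, which left 21810 of 21830 genes with complete values.

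All folds were computed on FPKM + 1, a scale on which changes of genes near or below 1 come out too small. The rule was coded in Python 3.11.15 with numpy 2.4.6 and pandas 2.3.3, figures were drawn with matplotlib 3.10.9, and the code was tested on simulated data. With 1 library per condition no test, standard deviation or leave-one-out value could be had, so counts of members are set beside the share of all genes past the same fold. The members, gene lists and roles were chosen with earlier results of these data known, and the lists of heat shock genes and of estrogen-related receptors with their coactivators, the calcium channel subunits, the roles and the split by E18 level were chosen after values were seen.

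The genes named with values were those with the 12 highest levels in P8 Cd73PC, the 8 largest fraction ratios at P8, the 5 largest rises in each interval, members of the gene lists, those nearest the thresholds, those past 1.5-fold between the fractions at P2 (up to 10 in each direction), and the 3 with the largest change in Cd73NC in each direction. Other members were given by range, or with values chosen after they were seen. Alternatives were smaller pseudocounts, a filter on low values, upper quartile and quantile scaling, failed estimates taken as 0, small RNAs kept and rows not summed. Others were a fold of 2 between the fractions, intervals apart at P8, and the 3 named genes judged by the rule. A last alternative, added after the data were seen, left out some members. These have a near-identical copy or more than 5% of their exon bases over another gene. Exon overlap was read from GENCODE vM1 on mm9, and promoter windows from RefSeq on GRCm38.p6. No coordinate was carried from one build to the other.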

Additional observations from a re-analysis of the deposited data

Results flagged for a closer look

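The 6 late rising genes in which the P2 fractions stood the opposite way to the P8 fractions are given here because of this reversal between ages. On the log2 scale of FPKM + 1, the ratio of Cd73PC to Cd73NC at P2 was -1.24 for Cdh4, -1.02 for Faah, -1.005 for Zfyve28, -0.70 for Cdr2, -0.64 for Adcy1 and -0.60 for Tbc1d30, and at P8 it was above 0.58 for each by the rule. The difference between the ages was not tested, since each value rests on single libraries.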

How the results depend on the processing

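The number of late rising genes depended most on the added 1. With 0.1 in its place 157 genes met the rule, of which 43 were among the 54, and with 0.01 it was 357, of which 44 were. The number past 1.5-fold in Cd73PC over Cd73NC at P2 among the 54 then went from 17 to 29 with 0.01. Under the other alternatives the rule gave between 42 and 80 genes. The median changes at P2, in Cd73NC and from E15 to E18 kept their direction under every alternative run, from 0.34 to 0.60, 0.20 to 0.63 (P2 to P5), 0.31 to 0.45 (P5 to P8) and 0.04 to 0.28 on the log2 scale. Of the 54 genes, 50 met the rule after upper quartile scaling and 38 after quantile normalization. The latter moved the median log2 P8 fraction ratio of expressed genes from -0.22 to 0.02. Iqcd, Rapgef5 and Slc26a2 were lost under both of these scalings and with both smaller pseudocounts. Without the 9 members that had at least 5.73% of their exon bases over another gene or have a near-identical copy 45 remained. This alternative was chosen after seeing the data. Members with smaller overlaps were kept, among them Il4i1, with 2.78% over Nup62 on the same strand (FPKM 22.5 in P8 Cd73PC). No paired analysis was possible because each condition was 1 library, and no replicate could be left out. Depth limits the genes under FPKM 1, where a few reads set the ratio.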
